A study of Mus musculus with 15 samples.

Results

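Epicardial stromal cells (EpiSC) were compared with activated cardiac fibroblasts (aCF) on 5 arrays each, 10 of the 15 arrays of the series, chosen by the sample titles and not by any measured value. Both came from wild-type C57BL/6 mice aged 8 to 12 weeks, in which myocardial infarction had been induced 5 days earlier. The other 5 arrays, from cardiac fibroblasts of unstressed hearts (CF) of the same strain and age, are given as background. No sham-operated group is named, and the labels do not say whether hearts were pooled or whether EpiSC and aCF of 1 number came from 1 heart. Hearts were digested by collagenase perfusion, and mild shear freed the EpiSC from the surface of the heart. For aCF and CF the atria were removed, and the digested ventricle was passed through strainers and a slow spin that separated it from heart muscle cells. Cell type and isolation step differ together, so their effects cannot be told apart. The sources used here do not give a sort by surface marker.

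The epicardium is the mesothelial sheet that covers the heart. After infarction it is activated: its cells multiply, some leave the sheet for the tissue beneath, and they secrete matrix and growth factors, with the transcription factor Wt1 as the usual mark of the layer. Fibroblasts of the ventricle respond to the same injury by dividing, laying down collagen and becoming contractile, and they lie among the endothelial cells and pericytes of the small vessels.

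Each value is a log2 expression level taken against its own median in the 15 arrays, which leaves differences between groups and no absolute level. Differences given after quantile normalization come from applying it to these centred values of the 10 EpiSC and aCF arrays. A positive difference means higher in EpiSC, errors of differences are standard errors with 5 arrays per group, and, unless Bonferroni is named, adjusted p is limma's p after Benjamini-Hochberg adjustment over all 22206 rows. In bulk RNA such as this, fewer cells of a type and less RNA per cell cannot be told apart. Genes could be named only by reading each identifier against the values 6900 rows further down (6903 for chromosomes 10 and 11), a shift inferred from the values and stated in no label. Within groups, 51 cell cycle genes had a mean pairwise correlation of 0.151 after this pairing and 0.0 as deposited, and at most 0.071 at 9365 other offsets. The inferred pairing assigns no value to genes of chromosomes 12 to 19 and the later part of chromosome 11, and it leaves the first 6900 rows of values unnamed; these are not analysed here.

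The quality weights that limma estimated for the arrays lay between 0.804 and 0.929 in EpiSC and between 0.824 and 1.43 in aCF. On the first principal component the EpiSC arrays lay at 0.204 to 0.311, aCF1 to aCF3 at -0.036 to -0.013, and aCF4 (0.051) and aCF5 (0.036) on the EpiSC side of them. Results are therefore also given without those 2 arrays. In the 130 named genes past the Bonferroni threshold their omission moved the log2 difference by at most 0.32. It could turn no sign, since the groups' arrays did not overlap in any of the 130.

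Among the genes higher in EpiSC, several share letters in the bases before their start. The stretch TGANTCA, where N is any base, takes in TGA(C/G)TCA, the core to which AP-1 (Fos and Jun) factors are known to bind. It also takes in TGAATCA and TGATTCA, which lack the C or G of that core. The stretch was searched on both strands in the 250 bases before the start in RefSeq (GRCm38.p6). It was found for 11 of the 62 genes past Bonferroni in EpiSC that have a promoter entry (17.7%), for 1 of 38 genes past it in aCF (2.63%), and for 750 of the 11283 named genes with an entry (6.65%). The shares with the TGA(C/G)TCA core alone were not counted, so these are not shares of AP-1 sites. The 4 with the most direct bearing on the results below follow, on their own strand, with the match in capitals: Serpinb2, the largest difference of all, the neighbours Dmkn and Sbsn, and the chemokine precursor Ppbp.

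Serpinb2, chr1:107511173-107511422, plus strand: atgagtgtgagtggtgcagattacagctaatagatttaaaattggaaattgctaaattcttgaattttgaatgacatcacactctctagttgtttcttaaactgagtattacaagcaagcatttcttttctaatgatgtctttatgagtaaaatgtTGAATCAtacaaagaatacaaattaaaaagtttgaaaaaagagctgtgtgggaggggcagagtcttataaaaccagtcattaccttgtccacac
Dmkn, chr7:30763506-30763755, plus strand: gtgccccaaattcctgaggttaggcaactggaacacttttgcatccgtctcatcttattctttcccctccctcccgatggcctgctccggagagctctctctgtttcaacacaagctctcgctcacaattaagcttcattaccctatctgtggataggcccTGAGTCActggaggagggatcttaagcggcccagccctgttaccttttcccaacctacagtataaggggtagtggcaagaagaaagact
Sbsn, chr7:30751221-30751470, plus strand: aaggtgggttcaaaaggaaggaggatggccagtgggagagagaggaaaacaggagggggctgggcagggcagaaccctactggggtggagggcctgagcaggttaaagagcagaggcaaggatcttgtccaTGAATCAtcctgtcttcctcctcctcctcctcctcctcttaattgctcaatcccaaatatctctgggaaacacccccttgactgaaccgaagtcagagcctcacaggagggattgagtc
Ppbp, chr5:90768268-90768517, plus strand: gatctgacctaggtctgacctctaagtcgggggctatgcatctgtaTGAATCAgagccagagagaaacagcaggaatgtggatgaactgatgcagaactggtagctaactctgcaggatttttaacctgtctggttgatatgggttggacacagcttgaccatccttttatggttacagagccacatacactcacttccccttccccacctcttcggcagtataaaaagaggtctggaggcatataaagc

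The match begins 94 bases before the start in Serpinb2, 89 in Dmkn, 119 in Sbsn and 204 in Ppbp. It reads TGAGTCA, the AP-1 core, in Dmkn, and TGAATCA in Serpinb2, Sbsn and Ppbp. The other letters searched were nearer to the share over all promoters. TGGGAA, the core for the Notch effector CSL, was in 22.6% of the genes higher in EpiSC, 26.3% of the lower ones and 21% of all. For GGAATG, the core for TEAD factors, these shares were 11.3%, 15.8% and 11.5%. For AGATAA, to which the family of Gata5 is known to bind, they were 8.06%, 13.2% and 9.36%. The NF-kB letters GGANTTTCC were in 0 promoters of either set and in 1.06% of all. These matches describe letters and were not tested.

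EpiSC had more RNA of Serpinb2, Dmkn and Wt1, and aCF more of Rgs5, Fmod and Ptprb. By limma with Bonferroni adjustment 148 of 22206 rows (0.666%) passed, 89 higher and 59 lower in EpiSC. With Benjamini-Hochberg adjustment 2135 (9.61%) passed, 1023 higher and 1112 lower. Of the 13513 named genes 75 (0.555%) were higher and 55 (0.407%) lower by Bonferroni, and 799 (5.91%) higher and 874 (6.47%) lower by Benjamini-Hochberg. In 890 named genes (6.59%) every EpiSC array lay above every aCF array, and in 832 (6.16%) below. The 130 genes past Bonferroni had a median fold of 2.94, and 45 of them exceeded 4-fold, 36 higher and 9 lower in EpiSC. The Bonferroni call of 72 of the 130, Wt1 and Dmkn among them, was lost in at least 1 of the 10 fits that left out 1 array, so the counts of this stricter rule are less firm than the sizes. All 130 passed Benjamini-Hochberg with the same sign in each of the 17 fits made of the comparison, as did 813 of the named genes in all. Rose and fell are used below for genes past Benjamini-Hochberg.

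**Figure D1:**
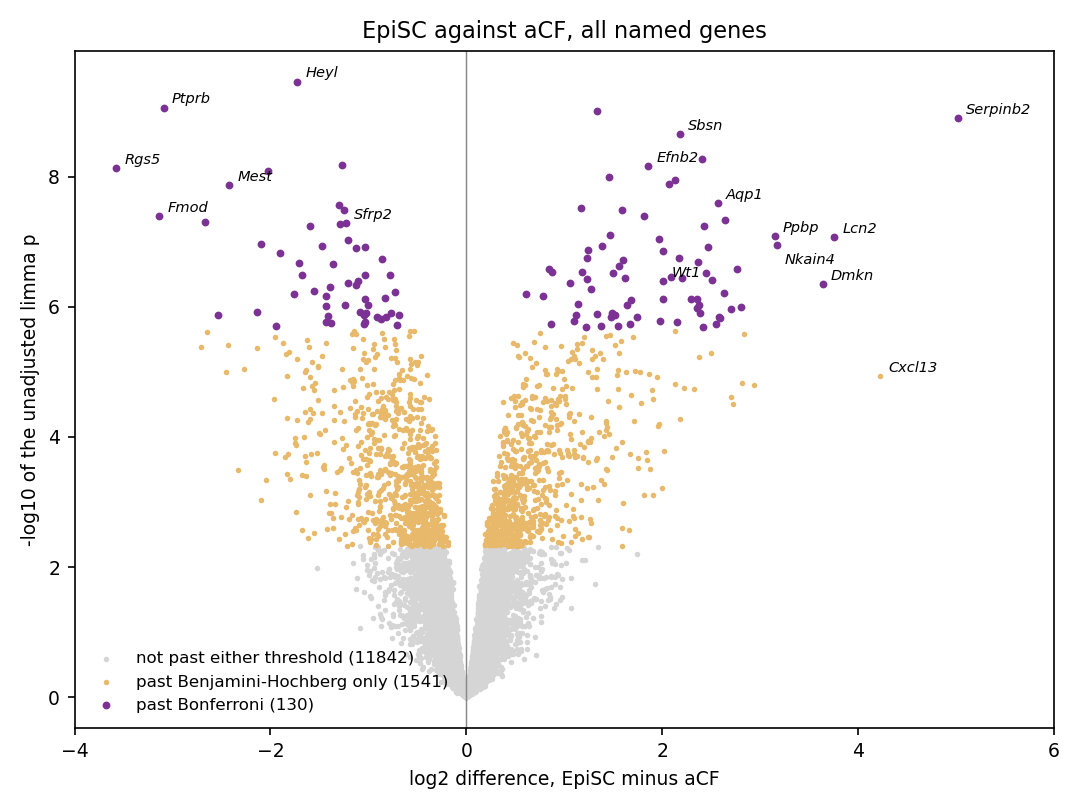
Each point is 1 of the 13513 named genes, with its log2 difference of EpiSC minus aCF on the x axis and the negative log10 of its unadjusted limma p on the y axis; purple points passed Bonferroni and orange ones Benjamini-Hochberg only. Serpinb2 stands apart on the right at 5.02, and Rgs5, Fmod and Ptprb on the left between -3.58 and -3.09.

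The labels were first checked on 5 genes: Wt1 and Dmkn of the epicardium and mesothelium, the serpin Serpinb2, Fmod of the matrix and Rgs5 of the vessel wall. Wt1, the epicardial transcription factor, had values of 1.99, 2.25, 2.45, 1.64 and 1.59 in EpiSC and -0.2, 0.04, 0.31, -0.06 and -0.23 in aCF. The groups did not overlap, the aCF arrays lay near the CF arrays (-0.47 to 0.0), and Wt1 was 4.03-fold higher in EpiSC (2.01 ± 0.18, adjusted p = 0.000121). Dmkn, a secreted protein known from skin and mesothelium, had values of 3.66, 3.69, 3.76, 3.52 and 3.45 in EpiSC and 0.0, -0.37, 1.16, 0.13 and -1.04 in aCF. The EpiSC arrays lay close together while the aCF arrays spread widely, with aCF3 the highest of them. Dmkn was 12.5-fold higher (3.64 ± 0.32, adjusted p = 0.000126; 2.95 after quantile normalization), and in CF it was lower still, at a mean of -2.44 ± 0.37 (SD, n = 5).

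Serpinb2, an inhibitor of the plasminogen activator urokinase, had values of 5.52, 4.7, 4.6, 5.46 and 5.24 in EpiSC and 0.5, 0.0, -0.4, 0.57 and -0.24 in aCF. Every EpiSC array stood over 4 log2 units above the highest aCF array. It was 32.4-fold higher in EpiSC (5.02 ± 0.25, adjusted p = 4.9e-06; 3.89 after quantile normalization), and the CF mean was -0.9 ± 0.15. On the other side, Fmod, a small proteoglycan that binds collagen fibrils, had values of -0.54, -0.68, -0.23, 0.44 and -0.72 in EpiSC and 3.04, 2.72, 3.08, 2.56 and 2.58 in aCF. EpiSC lay within the range of CF (-0.58 to 0.47) or just below it, and the aCF arrays alone were high. Fmod was 8.83-fold higher in aCF (-3.14 ± 0.22, adjusted p = 3.29e-05; -4.23 after quantile normalization). Rgs5, a regulator of G protein signalling known from pericytes, had values of -2.0, -2.76, -2.74, -2.85 and -3.17 in EpiSC and 0.98, 0.93, 0.92, 0.39 and 1.16 in aCF. It was 12.0-fold higher in aCF (-3.58 ± 0.21, adjusted p = 1.21e-05), with CF in between at -0.91 to 0.27. Wt1 and Dmkn were thus highest in the arrays labelled EpiSC.

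**Figure D2:**
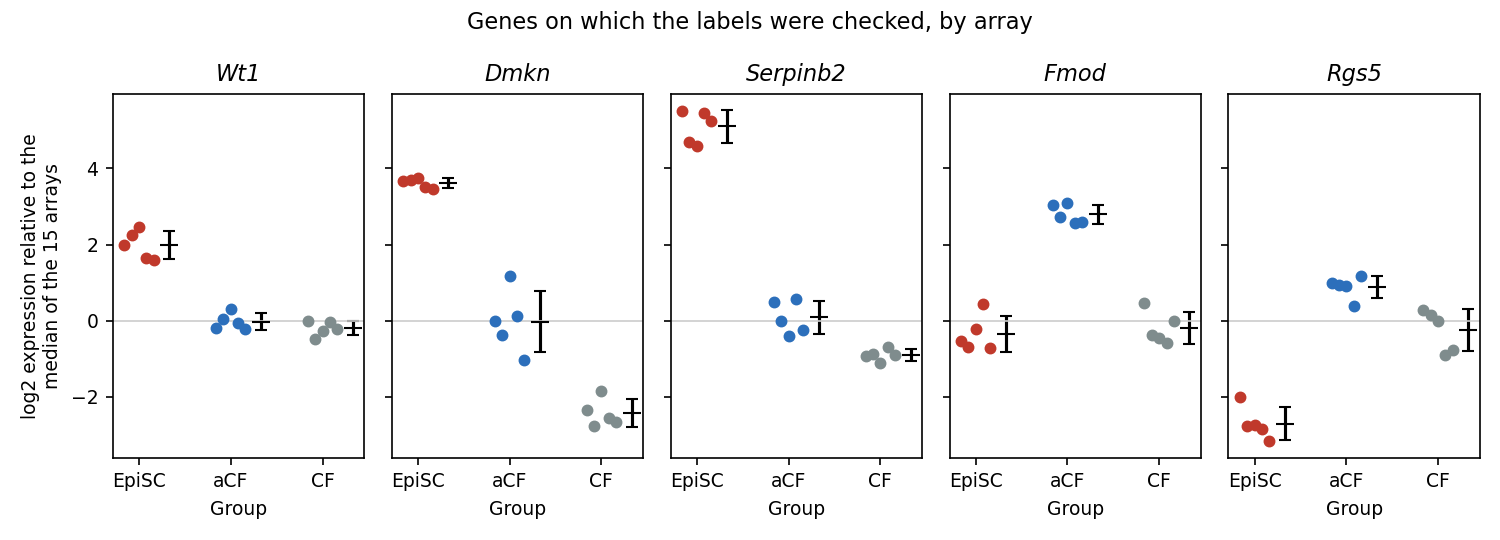
Each panel plots 1 gene, with the 5 arrays of each group as points and their mean and SD as a bar, in log2 units against the 15-array median of the gene. Wt1, Dmkn and Serpinb2 are high in EpiSC alone, Fmod is high in aCF alone, and Rgs5 is lowest in EpiSC.

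The 15 largest increases among the genes past Bonferroni in each fit without 1 array were led by Serpinb2 and Lcn2, a protein that binds bacterial iron carriers. Lcn2 had values of 3.7, 3.34, 3.9, 3.39 and 3.46 in EpiSC and 0.22, -0.84, 0.56, 0.0 and -0.95 in aCF. It was 13.5-fold higher (3.76 ± 0.28, adjusted p = 5.23e-05), and the CF arrays lay lower again (-2.09 to -1.29). Ppbp, the precursor of a neutrophil-attracting chemokine best known from platelets and counted with the platelet markers below, had values of 2.43, 3.0, 3.4, 2.98 and 3.91 in EpiSC and 0.31, -0.07, 0.05, -0.2 and -0.13 in aCF. The aCF arrays lay about where the CF arrays did (-0.16 to 0.0), and Ppbp was 8.89-fold higher in EpiSC (3.15 ± 0.24, adjusted p = 5.17e-05; 2.52 after quantile normalization). Nkain4, which encodes a partner of the sodium pump and is a mesothelial marker, had values of 3.08, 3.5, 3.57, 2.92 and 2.38 in EpiSC and 0.0, -0.29, 0.53, -0.4 and -0.24 in aCF (3.17 ± 0.24, adjusted p = 6.16e-05).

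Also among these 15, the adhesion molecule Chl1 rose by 2.76 ± 0.23, the water channel Aqp1 by 2.57 ± 0.17, the endosome recycling factor Rab11fip1 by 2.47 ± 0.19 and the scaffold Slc9a3r1, which ties membrane proteins to the cortex under microvilli, by 2.41 ± 0.14. The membrane proteins Tmem108 (2.64 ± 0.19) and Tmeff2 (2.45 ± 0.21), the kinase Stk26 (2.37 ± 0.2), Prr15 (2.17 ± 0.18) and the epithelial connexin Gjb5 (2.13 ± 0.13) rose as well. Outside these 15, Gja1, the connexin of heart muscle and many other tissues, rose by 1.59 ± 0.11 (adjusted p = 2.9e-05). Gja1 was picked after its value was seen. Sbsn, a secreted protein of stratified epithelia, is again among the 15. Its EpiSC arrays had values of 1.98, 2.16, 2.24, 2.06 and 2.33 and its aCF arrays 0.23, -0.38, 0.0, 0.04 and -0.03 (2.18 ± 0.11, adjusted p = 6.88e-06). Sbsn lies next to Dmkn on chromosome 7, and Krtdap, another gene of that epidermal cluster, was not called, with a difference of 0.17 ± 0.1 (adjusted p = 0.338). Among the genes past Bonferroni 5 pairs were next to each other in the RefSeq order of measured genes, and in 5 of 5 both members moved the same way: Sbsn and Dmkn, Cav1 and Met, Ptger3 and Cth upward, Rgs5 and Rgs4, Col4a1 and Col4a2 downward.

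Among the 15 largest decreases chosen in the same way were Rgs5, Fmod and Ptprb. Ptprb, a receptor phosphatase of endothelial cells, had values of -1.69, -2.38, -1.68, -1.59 and -1.74 in EpiSC and 1.44, 1.16, 1.31, 1.35 and 1.09 in aCF. The aCF arrays lay above each CF array (-0.36 to 0.83) and the EpiSC arrays below each, and Ptprb was 8.49-fold higher in aCF (-3.09 ± 0.15, adjusted p = 4.9e-06). Itga11, the alpha subunit of a collagen receptor of fibroblasts, had values of -1.88, -1.89, -2.25, -1.66 and -1.82 in EpiSC and 0.03, 0.13, -0.1, 0.25 and 0.36 in aCF. Here EpiSC alone stood apart, since CF lay at -0.04 to 0.13 (-2.03 ± 0.12, adjusted p = 1.21e-05). Mest, an imprinted gene of growing mesenchyme, showed the opposite arrangement, with -0.66, -0.73, -0.03, -0.58 and -0.13 in EpiSC, 2.09, 2.2, 2.01, 1.78 and 1.88 in aCF and -0.42 to 0.39 in CF. It was 5.34-fold higher in aCF (-2.42 ± 0.15, adjusted p = 1.49e-05). Olfr558, a member of the olfactory receptor family known from vascular muscle, fell by 2.67 ± 0.19, the pericyte gene Higd1b by 2.1 ± 0.16, and Fibin, a secreted factor, by 1.9 ± 0.15. The secreted peptide precursor Ecrg4 fell by 1.71 ± 0.14, the trafficking scaffold Nbea by 1.6 ± 0.12, the Z-disc adaptor Pdlim3 by 1.47 ± 0.11 and Rai2 by 1.29 ± 0.09.

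**Figure D3:**
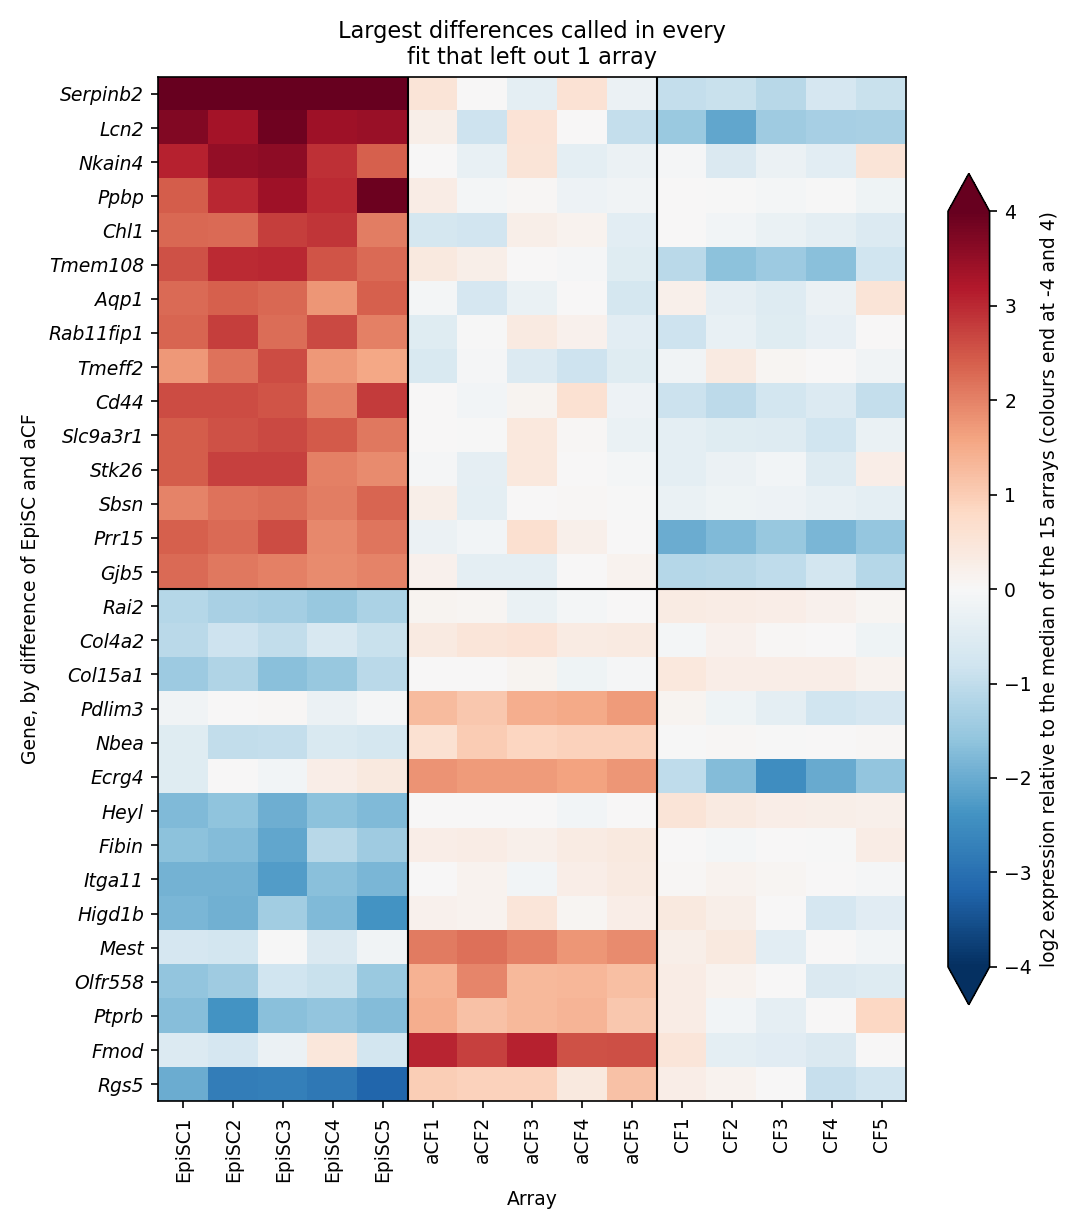
Rows are the 15 largest increases and the 15 largest decreases among genes past Bonferroni in each fit without 1 array, columns are the 15 arrays, and colour is the log2 value against the 15-array median of the gene. The upper block is high in EpiSC only, whereas in the lower block some genes, such as Heyl and Itga11, are low in EpiSC and others, such as Fmod and Mest, are high in aCF.

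Genes known from the epicardium and from mesothelium had the highest median of the 39 lists examined. Lists and members were chosen with earlier results of these data known, so rankings of lists here and below rest in part on that choice. Of 22 measured members 16 rose and 2 fell, with a median log2 difference of 1.96 against 0.03 over all named genes, and 10 rose by Bonferroni, 4 of them in each fit without 1 array. All 16 increases held in each of the 17 fits. Besides Wt1, the transcription factors Bnc1 (2.36 ± 0.22, adjusted p = 0.000174) and Gata5 (2.7 ± 0.26, adjusted p = 0.00022) rose. So did the mesothelial membrane proteins Upk3b (2.82 ± 0.37), Lrrn4 (2.84 ± 0.31) and Gpm6a (2.72 ± 0.39) and the secreted activator of Wnt signalling Rspo1 (1.48 ± 0.15). Not every gene of the layer took part. Tbx18, an epicardial transcription factor, differed by 0.1 ± 0.16 (adjusted p = 0.757) and the retinoic acid enzyme Aldh1a2 by -0.02 ± 0.14 (adjusted p = 0.958). Tcf21, which marks epicardial cells bound for the fibroblast lineage as well as resident fibroblasts, fell by 0.98 ± 0.19 (adjusted p = 0.00885).

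Junction genes moved singly. Of 19 measured members of the list of junction and epithelial polarity genes 5 rose and 2 fell, with a median of 0.1. F11r, a tight junction adhesion molecule, rose by 2.81 ± 0.27 (adjusted p = 0.000211), Cldn15, a claudin of mesothelium, by 1.9 ± 0.26, and Cdh1, the cadherin of epithelial adherens junctions, by 0.94 ± 0.13. Among the 2 that fell was Cdh5, the cadherin of endothelial cells (-1.96 ± 0.27). Epithelial members such as Esrp1 (0.08 ± 0.08) and Cldn4 (-0.03 ± 0.09) did not pass. Outside the list, 3 more genes of epithelia that passed were picked after their values were seen. They were Lsr, a tricellular junction protein, at 1.5 ± 0.13, the serpin Serpinb5 at 1.81 ± 0.13 and the galectin Lgals7 at 1.97 ± 0.15. For Serpinb5 the EpiSC arrays had values of 2.06, 1.97, 1.97, 1.65 and 1.35, whereas the aCF arrays lay between -0.04 and 0.01.

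Of 18 measured retinoid genes 5 rose and 0 fell (median 0.29). Rdh10, which oxidizes retinol to retinal, the first step towards retinoic acid, had values of 2.16, 1.66, 1.87, 1.95 and 1.75 in EpiSC and 0.0, -0.28, -0.1, -0.02 and -0.56 in aCF. The groups lay far apart, and aCF lay near CF (-0.13 to 0.22). Rdh10 was 4.2-fold higher in EpiSC (2.07 ± 0.13, adjusted p = 1.49e-05), and the carrier Crabp2, which hands retinoic acid to its receptor, rose by 2.42 ± 0.25 (adjusted p = 0.000305). These were the 2 retinoid genes that held in every fit.

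Secreted defence and inflammation genes rose in EpiSC in small numbers and by large amounts. Of 22 measured acute phase and innate genes 4 rose and 0 fell (median 0.2): Lcn2, the serum amyloid Saa3 (2.58 ± 0.26), the hyaluronan-binding protein Tnfaip6 (1.67 ± 0.17) and Tnfaip3, a brake on NF-kB signalling (1.28 ± 0.16). Of 28 measured chemokines 6 rose and 1 fell (median 0.23). Cxcl13, which attracts B cells, had values of 4.45, 4.45, 5.26, 4.53 and 4.39 in EpiSC and 1.03, -0.22, 2.27, 0.0 and -1.13 in aCF. The EpiSC arrays were alike and the aCF arrays spread over more than 3 log2 units, from aCF5 to aCF3, so that the difference (4.23 ± 0.54, adjusted p = 0.000928) had a large error; it was 3.59 without aCF4 and aCF5 and 3.03 after quantile normalization. The monocyte chemokines Ccl2 (1.47 ± 0.16, adjusted p = 0.000375) and Ccl7 (0.95 ± 0.19, adjusted p = 0.00992) and the neutrophil chemokine Cxcl5 (1.1 ± 0.17, adjusted p = 0.00257) rose. In the plasminogen list Plaur, the receptor that holds urokinase at the cell surface, rose by 1.34 ± 0.18 beside Serpinb2, as 2 of 12 measured members, and 2 fell.

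Interferon-stimulated genes were higher in EpiSC, 11 of 23 measured rising and 0 falling (median 0.47), 9 of them in every fit. Zbp1, a sensor of nucleic acid, had values of 1.55, 1.45, 1.92, 1.42 and 1.82 in EpiSC and -0.09, 0.0, -0.19, 0.37 and 0.07 in aCF (1.6 ± 0.13, adjusted p = 8.22e-05). Oas1g, of the family that makes the activator of the antiviral ribonuclease, rose by 1.17 ± 0.08 (adjusted p = 2.9e-05), its relative Oas2 by 1.77 ± 0.22 and the interferon regulator Irf7 by 1.08 ± 0.12. Without aCF4 and aCF5 the median of the list was 0.3.

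Genes of division, glycolysis and sterol synthesis moved by smaller and more even steps. Of 30 measured DNA replication genes 17 rose, 10 of them in every fit, and 0 fell (median 0.54). They were led by Gins1 (1.24 ± 0.23) and Gins2 (1.06 ± 0.09) of the replicative helicase. Of 28 measured mitosis genes 15 rose, 8 of them in every fit, and 0 fell (median 0.53). Birc5, a subunit of the chromosomal passenger complex, rose by 0.82 ± 0.1. These lists stood lowest in CF, where the mean over the mitosis genes was -1.82, against 0.02 in aCF and 0.56 in EpiSC. Glycolysis and lactate export had 10 of 18 measured members risen and 0 fallen (median 0.57). The lactate exporter Slc16a3 had values of 1.35, 1.04, 1.15, 1.12 and 1.18 in EpiSC and 0.0, -0.22, -0.32, 0.08 and 0.09 in aCF (1.24 ± 0.1, adjusted p = 6.39e-05), the glucose carrier Slc2a1 rose by 1.04 ± 0.12 and Tpi1, triose phosphate isomerase, by 0.61 ± 0.06. Of 13 measured cholesterol synthesis genes 5 rose and 0 fell (median 0.56), and 13 of 13 differences were above 0, from Dhcr7 (0.05 ± 0.2, not past the test) to Fdps (1.01 ± 0.14), the synthase of farnesyl diphosphate.

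Markers of activated fibroblasts were lower in EpiSC. Of 19 measured 16 fell and 0 rose (median -0.57), 10 of them in every fit. Cilp, a matrix protein of injured heart and cartilage, had values of -1.84, -1.01, -2.04, -0.9 and -0.33 in EpiSC and 1.42, 1.35, 1.49, 1.39 and 1.49 in aCF. The aCF arrays were nearly equal and the EpiSC arrays spread widely (-2.65 ± 0.28, adjusted p = 0.000359). Sfrp2, a secreted Wnt modulator, had values of -0.33, -0.09, 0.0, 0.07 and 0.08 in EpiSC and 1.26, 1.05, 1.13, 1.23 and 1.23 in aCF. It fell by 1.23 ± 0.09 (adjusted p = 3.81e-05), and the CF arrays lay below both groups (-1.38 to -0.99). Fap, a surface protease of activated fibroblasts, fell by 1.83 ± 0.28, and the matricellular proteins Ccn5 and Ccn2 by 1.56 ± 0.14 and 1.16 ± 0.15. Postn, the matricellular periostin, fell by only 0.42 ± 0.07 (adjusted p = 0.00537). For the mean over the list, EpiSC arrays lay at -0.4 to 0.03, between the aCF arrays (0.76 to 0.83) and the CF arrays (-0.87 to -0.62). Of 17 measured resting fibroblast markers 6 fell and 0 rose (median -0.33), among them Col15a1 (-1.36 ± 0.11, adjusted p = 8.84e-05).

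Matrix genes were lower in EpiSC more often than higher, by large amounts in a few. Of 19 measured fibrillar collagens and small leucine-rich proteoglycans 10 fell and 2 rose (median -0.36), with 2 of the 10 falling in every fit, Fmod and the proteoglycan Bgn (-0.4 ± 0.06). Of 21 measured basement membrane genes 9 fell and 2 rose (median -0.19). Col4a2, a chain of the network collagen of basement membranes, had values of -1.08, -0.83, -0.97, -0.65 and -0.9 in EpiSC and 0.35, 0.49, 0.55, 0.34 and 0.36 in aCF. EpiSC alone lay outside the range of CF on the low side (-1.3 ± 0.09, adjusted p = 2.73e-05). Its partner Col4a1 fell by 1.03 ± 0.1 and the laminin chain Lama2 by 1.64 ± 0.2, while Lama5, the laminin chain of epithelia, rose by 0.56 ± 0.11. Of 24 measured metalloproteinases and inhibitors 5 rose and 5 fell (median 0.06). The membrane-bound Mmp16 fell by 1.13 ± 0.09 and the inhibitor Timp1 rose by 0.57 ± 0.09. In the list of collagen-modifying enzymes and chaperones of the endoplasmic reticulum, 4 of 19 measured fell and 0 rose (median 0.0), with the prolyl hydroxylase chain P4ha3 at -1.11 ± 0.19 and the lysyl hydroxylase Plod1 at -0.61 ± 0.08.

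Receptors for matrix differed in both directions. Of 12 measured integrin subunits 3 rose and 5 fell (median 0.01). Itga6 (1.41 ± 0.23) and Itgb4 (1.05 ± 0.16), which pair as the laminin receptor of hemidesmosomes, rose, whereas Itga11, the laminin receptor chain Itga7 (-0.77 ± 0.08) and Itgb1 (-0.49 ± 0.06), the beta chain both share, fell. Cd44, the receptor for hyaluronan, had values of 2.6, 2.61, 2.52, 2.02 and 2.79 in EpiSC and 0.0, -0.11, 0.1, 0.6 and -0.21 in aCF. The CF arrays were lower again (-1.04 to -0.54), and Cd44 was 5.4-fold higher in EpiSC than in aCF (2.43 ± 0.18, adjusted p = 3.84e-05). Of 19 measured hyaluronan and proteoglycan genes 4 rose and 4 fell (median 0.14). Among the surface heparan sulphate proteoglycans, Sdc4 rose by 1.22 ± 0.13 and Sdc3 fell by 1.03 ± 0.09.

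Genes of pericytes and vascular smooth muscle had the lowest median of the 39 lists, and some Notch targets fell as well. Of 20 measured mural genes 14 fell and 2 rose (median -1.01), 11 of the 14 in every fit. Besides Rgs5, the adhesion molecule Mcam (-2.71 ± 0.31), Rgs4 (-2.54 ± 0.25) and Vtn, vitronectin (-1.95 ± 0.21), fell. The 2 that rose were Des, the intermediate filament desmin (1.68 ± 0.16), and the metalloreductase Steap4 (0.92 ± 0.13). Heyl, a Notch target of vessel walls that is also on the mural list, had values of -1.77, -1.6, -1.96, -1.65 and -1.76 in EpiSC and 0.0, 0.02, 0.02, -0.11 and 0.0 in aCF. Both groups were tight, CF lay slightly above aCF (0.19 to 0.52), and Heyl had the lowest p of all named genes (-1.73 ± 0.07, adjusted p = 4.9e-06). Of 16 measured Notch genes 4 fell and 0 rose (median -0.34), Hey1 by 0.87 ± 0.15, while the receptor Notch1 differed by -0.23 ± 0.11 (adjusted p = 0.227).

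Of 21 measured endothelial genes 6 fell and 1 rose (median -0.17), unevenly. Ptprb, Cdh5 and the coreceptor Eng (-1.15 ± 0.15, adjusted p = 0.00103) fell, whereas Kdr, the main VEGF receptor, differed by -0.09 ± 0.26 (adjusted p = 0.871) and Vwf by -0.09 ± 0.16 (adjusted p = 0.797). The gene that rose was Cav1, the caveolar coat protein that many cell types hold (1.56 ± 0.13, adjusted p = 9.35e-05). Its neighbour Met, the receptor for hepatocyte growth factor, rose by 2.2 ± 0.19 (adjusted p = 0.000118), and Tes, a focal adhesion protein beside them, by 1.12 ± 0.11. How many endothelial or mural cells each sample held was not measured, and their part in these differences was not tested.

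Secreted signals differed in both directions. Of 29 measured growth factor ligands and binding proteins 3 rose and 7 fell (median -0.09). The neurotrophin Bdnf (-2.14 ± 0.24, or -2.84 after quantile normalization), pleiotrophin, Ptn (-1.38 ± 0.14), Igf2 (-1.04 ± 0.11) and the lymphatic growth factor Vegfd (-1.02 ± 0.1) fell, and the PDGF ligand Pdgfc rose by 1.4 ± 0.17. For Pdgfc the EpiSC arrays lay at 1.22 to 1.58, the aCF arrays at -0.45 to 0.53 and the CF arrays at -2.68 to -1.9. Of 16 measured Wnt antagonists and R-spondins 2 rose and 3 fell (median 0.07): Sfrp1 (-2.14 ± 0.21), Sfrp2 and Frzb (-1.51 ± 0.18) fell, each a decoy for Wnt ligands, and Rspo1 was 1 of the 2 that rose. Of 20 measured TGF-beta and BMP genes 4 fell and 0 rose (median -0.1), Tgfb1 by 0.74 ± 0.08. In the imprinted growth network 4 of 17 measured genes fell and 1 rose (median -0.14).

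Of 34 measured axon guidance genes 6 rose and 8 fell (median -0.24). Efnb2, a membrane-bound ephrin, had values of 1.64, 2.07, 1.75, 1.77 and 1.8 in EpiSC and 0.09, 0.0, 0.1, -0.08 and -0.36 in aCF. It was 3.62-fold higher (1.86 ± 0.11, adjusted p = 1.21e-05), with CF lower again (-1.15 to -0.56). The ephrin receptor Epha2 rose by 1.58 ± 0.17, and Sema7a, a semaphorin that acts through integrins, fell by 1.94 ± 0.2 together with its receptor Plxnc1 (-1.16 ± 0.13).

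Markers of other cells moved with the comparison in part. Of all named genes 5.91% rose and 6.47% fell, so 1 member risen or fallen in lists this short is not read as movement of the list. Of 19 measured macrophage markers 2 rose and 7 fell (median -0.22), with Ctss, a lysosomal protease (-0.85 ± 0.12, adjusted p = 0.00184), falling in every fit; without aCF4 and aCF5 1 rose and 1 fell. The mean over the macrophage list lay at 0.01 to 0.1 in EpiSC and 0.12 to 0.3 in aCF. Of 6 measured platelet and erythroid markers 3 rose and 0 fell, each of the 3 in every fit: Ppbp, the integrin chain Itgb3 (0.86 ± 0.15) and the haem enzyme Alas2 (1.43 ± 0.23). The median of 0.86 was the second highest of the 39 lists, and 6 of 6 differences were above 0. The mean over this list lay at 0.67 to 1.31 in EpiSC, -0.28 to 0.0 in aCF and -0.15 to 0.06 in CF, and the platelet chemokine Pf4 differed by 0.43 ± 0.13 (adjusted p = 0.0607). Of 19 measured heart muscle markers 1 rose and 3 fell (median -0.21), and without aCF4 and aCF5 6 fell (median -0.29). The one that rose was Myl7, the atrial myosin light chain (2.38 ± 0.28, adjusted p = 0.000601). Of other genes known from atria, Nppa differed by -0.76 ± 0.45 (adjusted p = 0.348) and Sln by 0.04 ± 0.08 (adjusted p = 0.834). Myl2, the ventricular myosin light chain, had values of -1.63, -1.89, -2.82, -2.14 and -2.41 in EpiSC and 0.02, 0.0, 0.5, -1.79 and -1.97 in aCF. The arrays aCF4 and aCF5 lay within the range of EpiSC, and the difference was -1.53 ± 0.49 (adjusted p = 0.0816) with them and -2.35 without them. The mean over the heart muscle list was -0.44 to -0.19 in EpiSC and -0.5 to 0.26 in aCF, and it overlapped. Of 13 measured neutrophil markers 1 rose (7.69%, near the share of all named genes). Of 11 measured lymphocyte markers 0 passed in limma (before adjustment, 1 was higher and 0 were lower at 0.05). Of 9 measured Schwann and neuronal markers 1 rose and 1 fell, and of 8 measured adipocyte markers 1 rose and 2 fell. The part of such cells in the results above was not tested.

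Ribosomal, respiratory chain and cytoskeletal genes had medians near that of all named genes (0.03). Of 35 measured cytosolic ribosomal proteins 0 passed in limma (median 0.04); before adjustment, 2 were higher and 0 were lower at 0.05. Of 37 measured respiratory chain subunits 4 rose and 1 fell (median 0.09), each by less than 1 log2 unit and none in every fit. Contractile and cytoskeletal genes had 3 of 28 measured members risen and 2 fallen (median -0.02). Of 20 measured immediate early genes, which dissociation is known to induce, 2 rose and 0 fell (median 0.22), neither in every fit. Of 17 measured complement genes 5 fell (29.4%, against 6.47% of all named genes) and 0 rose (median -0.16). They were Cd59a, C3ar1 and the C1q chains C1qa, C1qb and C1qc, and these C1q genes are also counted among the macrophage markers that fell. Without aCF4 and aCF5 0 passed in limma (median -0.12), and before adjustment 0 were higher and 7 were lower at 0.05.

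**Figure D4:**
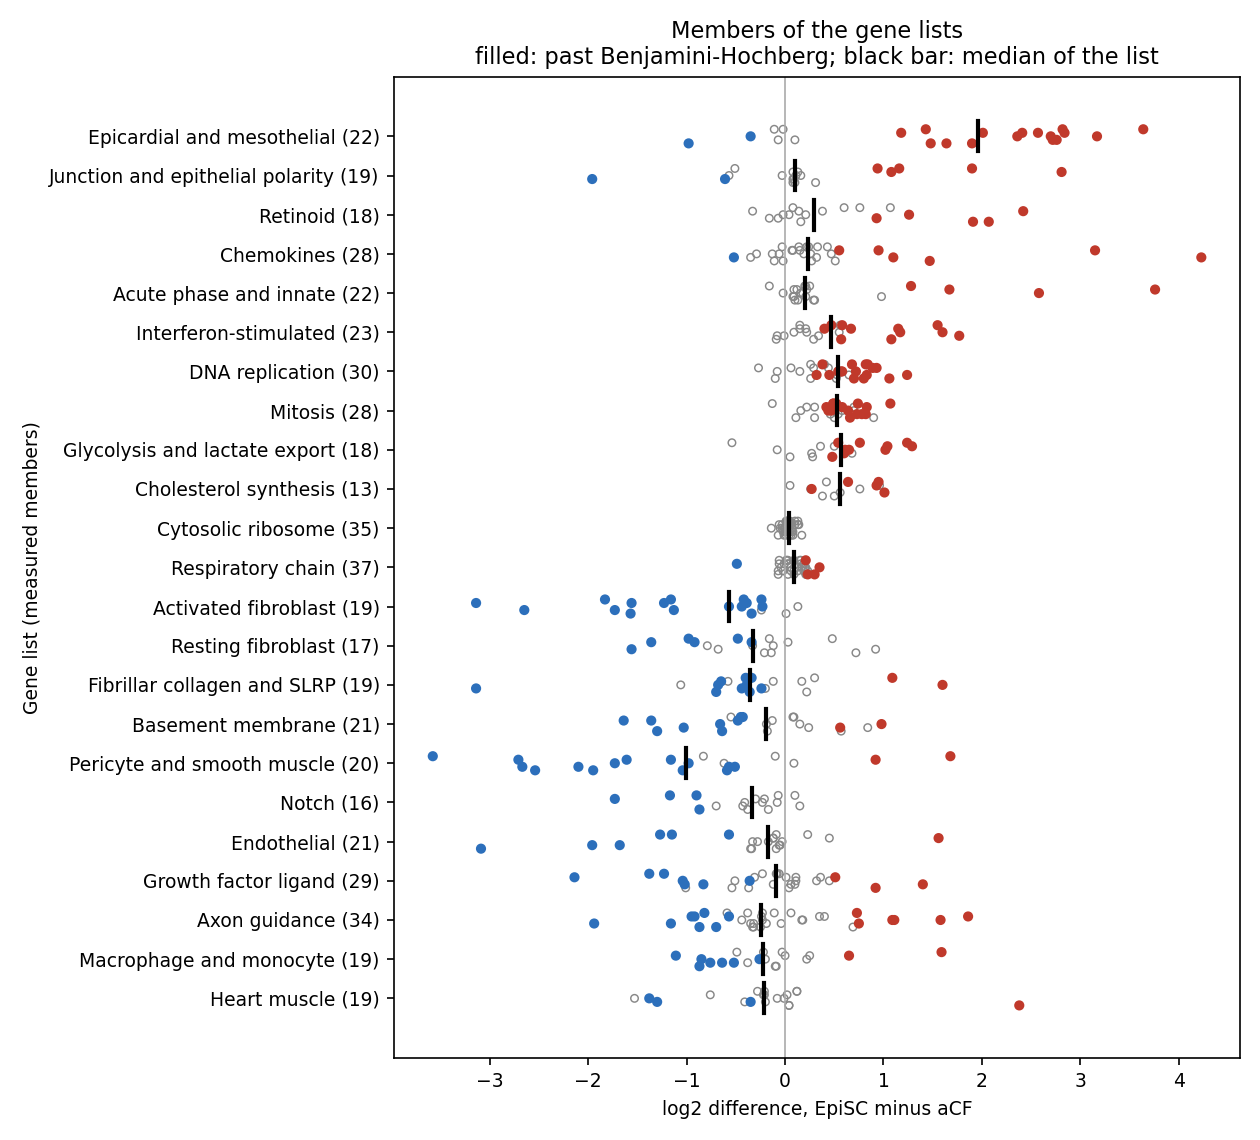
Each point is 1 measured member of a gene list at its log2 difference of EpiSC minus aCF; filled points passed Benjamini-Hochberg, open ones did not, and the black bar is the median. Medians run from 1.96 for epicardial and mesothelial genes to -1.01 for pericyte and smooth muscle genes, and the 35 ribosomal proteins lie close to 0.

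The CF arrays place each difference. For 71 of the 75 genes past Bonferroni and higher in EpiSC, the CF mean lay nearer to aCF than to EpiSC. Of the 75 it lay below both groups for 53 and between them for 22. For the 55 lower in EpiSC the CF mean was nearer to EpiSC in 25 and nearer to aCF in 30, between the groups in 32, above both in 14 and below both in 9. These are positions of means, and no test was made of them. The same shares over all named genes were not counted, so the positions are not read as a trait of the called genes. On the first principal component too, the CF arrays (-0.294 to -0.249) lay on the other side of aCF from EpiSC.

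Leaving out aCF4 and aCF5 made the Bonferroni calls fewer and left the sizes nearly as they were. The count fell from 148 to 50 rows, and 29 of the 130 named genes kept their Bonferroni call. All 130 passed Benjamini-Hochberg, and the ratio of the difference without those arrays to that with them lay between 0.876 and 1.1. Their sign could not turn, since the groups' arrays did not overlap in any of them. By Benjamini-Hochberg 582 named genes then rose and 582 fell, and the median of no list moved by more than 0.17. Besides the lists given above, the number of activated fibroblast markers that fell went from 16 to 10, of fibrillar collagens and proteoglycans from 10 to 5, of metalloproteinases and inhibitors from 5 to 3 and of collagen-modifying enzymes and chaperones from 4 to 2. The number that rose went from 17 to 12 in the DNA replication list and from 15 to 10 in the mitosis list. It went from 5 to 2 in the retinoid list and from 6 to 3 in the axon guidance list.

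**Figure D5:**
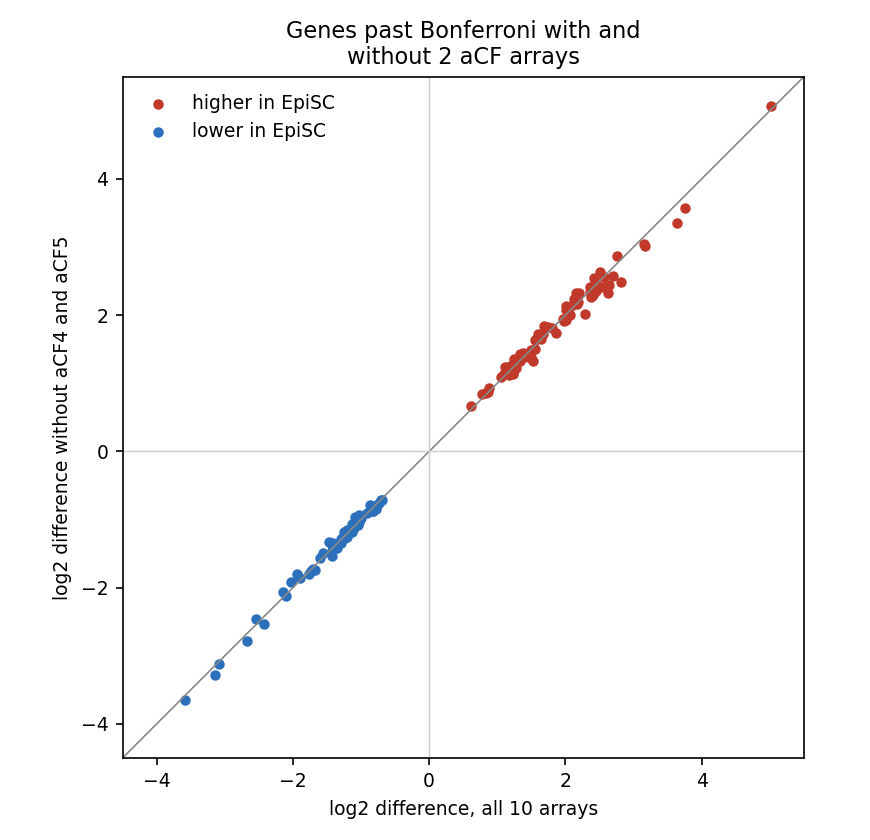
Each point is 1 of the 130 named genes past Bonferroni, with its log2 difference from all 10 arrays on the x axis and from the 8 arrays without aCF4 and aCF5 on the y axis; the line marks equal values. The points follow the line, moving from it by 0.32 at most.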

How the data were processed

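RNA of 15 samples was measured on Affymetrix arrays, 5 per group. Biotin-labelled cDNA was made from 1 ng of total RNA, per the labels. The deposited log2 values were made by the authors, per the series design text, in GeneSpring GX 12.5 by quantile normalization, an exon-level RMA summary and centring of each probe set on its median over all arrays. Base 2 is inferred from the method and from the range, -4.77 to 5.52. Centring removes each gene's level, so signal over background is unknown, and the filter at the 20th percentile that the design text names could not be applied. The number of arrays limits the precision.

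Of 22206 identifiers, 15303 were paired with values by the inferred shift and 6903 were assigned none; 13538 of those paired have a symbol in the platform annotation, for 13513 genes. For genes with several probe sets the first was used. All 19572 symbols of the annotation were found in the RefSeq table (GRCm38.p6), 2634 identifiers have none and 0 have several. For 25 pairs of probe sets of 1 gene the median correlation was 0.586 after the shift and -0.068 as deposited. The first 6900 rows of values stay unnamed. They hold 5 of the 148 rows past Bonferroni and 313 of the 2135 past Benjamini-Hochberg.

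EpiSC and aCF were compared by lmFit and eBayes of limma 3.58.1 (R 4.3.3) on their 10 arrays, 2-sided, with Bonferroni adjustment at 0.05 as the main rule and Benjamini-Hochberg as the second. In simulated data of this comparison, 22206 rows were given independent normal noise with each row's within-group SD. Bonferroni found 2, 25, 46 and 47 of 50 planted log2 differences of 0.5, 1, 2 and 3, with 0 false calls. Benjamini-Hochberg found 25, 42, 48 and 50, with 21 false calls, which was more than 0.05 of its calls. Arrays of a group are biological replicates, per the series design text. The labels do not say whether replicate numbers pair the groups. Deviations of equal numbers correlated at -0.003 to 0.172, over 0.1 in 1 of 5 pairs, which cannot settle it. Genes were named by rule: the 5 markers, the 15 largest increases and 15 largest decreases called in every fit without 1 array and not overlapping, up to 5 called members of each of 39 lists (else the 2 with the lowest p), and each list's extremes. Not every gene the rule allows is printed, and 48 more were chosen after their values were seen. The members and lists were chosen with earlier results of these data known. Lists are described by counts and medians, with no test of a list. Alternatives were other adjustments, normalization, weights and models, a replicate block, and omission of arrays. The alternative quantile normalization acted on values already quantile normalized and centred, and it gives the 10 arrays the same spread. Differences after it are thus not a plain check of size. Of the 130 called genes it moved the fold of 4 by over 1.5 times. Promoter letters came from RefSeq entries for 11283 named genes.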

Additional observations from a re-analysis of the deposited data

Results flagged for a closer look

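Of 254 sets of 5 arrays (each printed gene in EpiSC and in aCF), 11 held an array that stood far from the other 4 by Dixon's criterion, where chance gives about 1 in 20.

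In EpiSC, EpiSC3 was high for Cxcl13 (5.26, the others 4.39 to 4.53), EpiSC1 for Tpi1 (0.68, the others 0.61 to 0.63), and EpiSC2 was low for Ptprb (-2.38, the others -1.74 to -1.59). EpiSC4 was low for Aqp1 (1.77, the others 2.28 to 2.39) and EpiSC5 for Epha2 (0.92, the others 1.61 to 1.85).

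In aCF, aCF3 was high for Alas2 (0.26, the others -0.94 to -0.64) and low for Tbx18 (-0.46, the others 0.03 to 0.2). Further, aCF2 was high for Olfr558 (1.95, the others 1.19 to 1.4), aCF5 was high for Birc5 (0.27, the others -0.05 to 0.04), and aCF4 was low for Heyl (-0.11, the others 0.0 to 0.02) and for Plxnc1 (-0.39, the others -0.01 to 0.11). In 10 of these genes the flagged array lay on its own group's side of the other group, and Tbx18, which did not pass, is the exception. The 10 had passed the comparison, so this position was largely fixed beforehand and does not judge the flagged arrays.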

How the results depend on the processing

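The 148 rows past Bonferroni, 89 higher and 59 lower in EpiSC, became 2135 (1023 and 1112) by Benjamini-Hochberg, 369 (178 and 191) in a fit of all 3 groups, 97 (32 lower) with a trended and robust fit, 50 (27 and 23) without aCF4 and aCF5, and 41 (34 and 7) with a replicate block. In the fit of all 3 groups and by Benjamini-Hochberg the majority was thus lower in EpiSC. Leaving out 1 array gave 73 (without aCF2) to 143 (without EpiSC5), with 45 to 76 higher and 28 to 67 lower; the count moved by over 1.5 times also without EpiSC1 (85), EpiSC2 (91), aCF1 (77), aCF3 (90), aCF4 (91) and aCF5 (87). Of the 69 genes printed above that passed Bonferroni, quantile normalization ended 14 of those calls, the trended and robust fit 18, the replicate block 48, omission of aCF4 and aCF5 46 and at least 1 omission of a single array 26. In these fits 0 changed sign, but of them only quantile normalization could have turned a sign. The replicate block left 130 of 130 named calls past Benjamini-Hochberg. Of the 5 EpiSC arrays 2 correlated best with the aCF array of their number, and the labels do not say whether equal numbers pair the samples. The cause of these losses was not tested. Fits that left out arrays also rested on fewer arrays. Differences near 0 changed sign when 1 array was left out: Tbx18 ran from -0.01 to 0.19, Dhcr7 from -0.03 to 0.22 (below 0 in 4 of the 10 fits, at -0.02, -0.02, -0.03 and -0.01), Aldh1a2 from -0.12 to 0.1 (above 0 in 4, at 0.01, 0.1, 0.01 and 0.01) and Kdr from -0.32 to 0.09. Sln ran from -0.02 (without aCF4) to 0.08, and was -0.03 without aCF4 and aCF5. Signal over background cannot be read from centred values.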
